A study of Solanum lycopersicum with 12 samples.

Results

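Tomato (Solanum lycopersicum) roots and leaves were each measured with and without cadmium (Cd), and the question here is which transcripts answered Cd differently in the 2 organs. The organ difference is the root response (root-Cd minus root-ck) minus the leaf response (leaf-Cd minus leaf-ck), taken on the log2 scale for each probe set, the group of oligonucleotides that reports one transcript. A value of 1 means that the Cd-to-control ratio was 2-fold higher in root than in leaf. It draws on all 12 single-channel Affymetrix arrays of the series and on 10038 of 10209 probe sets, the other 171 being controls of the array. The titles give 4 groups of 3 arrays: roots with Cd (root-Cd), roots without it (root-ck), leaves with Cd (leaf-Cd) and leaves without it (leaf-ck). The source label of the 3 leaf-Cd arrays describes leaves without Cd, and no label other than the title separates the 6 leaf arrays, so every leaf value below rests on the titles. The labels leave out the Cd dose, the length of treatment, the cultivar and the age of the plants. Whether the 3 arrays of a group hold RNA of different plants is not said. The p-values therefore reflect the scatter among these arrays alone, and that scatter may be technical.

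Cadmium is a toxic metal with no nutritional role in plants. It enters roots through carriers of iron, zinc and calcium and is bound there by thiols such as glutathione and phytochelatins, and a part of it moves to the shoot in the xylem. In plants generally it is known to disturb redox balance, photosynthesis, growth and the hormone ethylene. Where Cd is supplied to the root, roots meet the metal directly, whereas leaves receive it, and any signal, by way of the root.

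The cadmium responses of root and leaf differed in 76 of 10038 probe sets (0.757%; limma, Benjamini-Hochberg adjusted p under 0.05 over all probe sets). In 23 (0.229%) the root response lay above the leaf response and in 53 (0.528%) below it. At an unadjusted p under 0.05 there were 1532. The size of the 76 organ differences ran from 0.78 to 5.67 with a median of 1.73 (log2), and 73 were at least 2-fold. The same fit called 304 probe sets in the root response (3.03%), 107 higher (1.07%) and 197 lower (1.96%) with Cd. In the leaf response it called 379 (3.78%), 224 higher (2.23%) and 155 lower (1.54%). Across all probe sets the root and leaf responses, which share no array, correlated at r = 0.19 and had the same sign in 53.1%. This correlation is a description across genes, which are not independent replicates.

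The number of calls depended on single arrays and on pairing. It was 37 to 43 without root-ck-1, root-ck-2, root-ck-3 or root-Cd-1 (40, 43, 37 and 39 calls), 28 without leaf-ck-2, 26 without leaf-ck-3 and 50 without leaf-Cd-2. It was 160 without leaf-Cd-3, an array that correlated on average at 0.963 with the other leaf-Cd arrays and at 0.964 with leaf-ck. Pairing the leaf arrays by their title number gave 185 calls, 95 positive and 90 negative, and 74 of the 76 were among them. No label gives that pairing, and it was chosen from these same data, so it is not an independent check. The split of 23 positive to 53 negative calls also depended on the setting. It was 88 to 72 without leaf-Cd-3 and 46 to 41 with the arrays of both organs paired by number. Apart from these settings and the leaf pairing, negative calls were the more numerous. The sign of all 76 organ differences stayed the same in each of the 23 alternative settings that tested them.

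**Figure D1:**
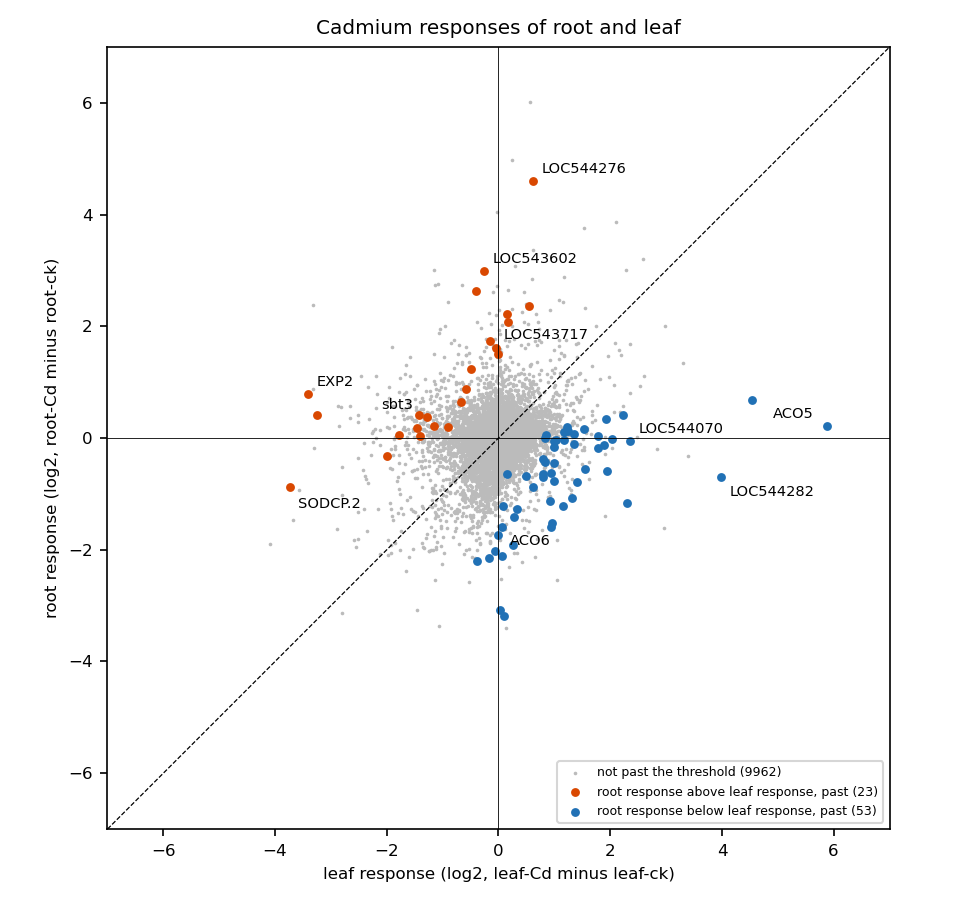
Root response (y axis, log2) against leaf response (x axis, log2) for 10038 probe sets, each a point. The 23 probe sets past the threshold above the dashed line of equal response are orange and the 53 below it are blue. Most coloured points lie near the horizontal or the vertical axis, where the response of 1 organ is near 0.

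The 76 probe sets were sorted by which organ's own response passed the threshold. In 29 the leaf response rose with no call in root, in 18 the root response fell with no call in leaf, in 11 the root rose and in 10 the leaf fell, again with no call in the other organ. In 6 the root fell and the leaf rose, in 1 both fell, and in 1 neither response passed by itself. Over all probe sets the root response rose in 1.07% and fell in 1.96%, and the leaf response rose in 2.23% and fell in 1.54%. The 76 were selected by the difference between the 2 responses, which disfavours like responses. The scarcity of shared falls and the number of calls in 1 organ thus follow in part from the selection. A missing call in an organ does not show that nothing changed there. In some of these the other organ held no measurable signal. Of the 18 that fell in root, 6 were at background on all leaf arrays, as were 2 of the 11 that rose in root. Of the leaf calls, 2 of the 10 falls and 1 of the 29 rises were at background on all root arrays. Background is the highest of 23 negative control probe sets on each array, 3.13 to 3.57 in root arrays and 2.69 to 3.01 in leaf arrays (log2).

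Gene symbols were available for 909 of the 10038 probe sets, which represent 801 genes. Of these, 10 genes, with 12 of the 76 probe sets, differed between the organs, 6 with a positive and 4 with a negative organ difference. The other 64 of the 76 probe sets carry no symbol here. Over the 801 genes the median organ difference was 0.05, and 433 were positive. The genes are described below by what they do, with log2 expression on each of the 3 arrays of a group.

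The ethylene-forming enzymes ACO5 and ACO6 had negative organ differences from opposite sides. ACC oxidases catalyse the last step of ethylene synthesis. ACO5 was at 12.18, 11.31 and 12.42 in root-Cd and at 11.58, 12.31 and 11.39 in root-ck. In leaf-Cd it was at 7.80, 9.08 and 8.58, against 2.64, 2.65 and 2.55 in leaf-ck. The root groups overlapped fully, the leaf-Cd arrays lay above background, and the leaf-ck arrays were all at background. ACO5 had the largest organ difference of any probe set past the threshold, -5.67 ± 0.51 (SE; 95% interval -6.79 to -4.54, limma adjusted p = 0.00124), with a root response of 0.21. Set against the background level in leaf-ck, the rise in leaf was at least 50.2-fold and the ratio between the 2 responses at least 43.3-fold.

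ACO6 moved in the root instead. It was at 7.12, 6.67 and 7.02 in root-Cd, against 8.29, 8.45 and 8.83 in root-ck, and at 11.18, 11.34 and 11.34 in leaf-Cd, against 11.31, 11.26 and 11.11 in leaf-ck. The root groups did not overlap and the leaf groups did. The organ difference was -1.64 ± 0.23 (adjusted p = 0.0133), with a root response of -1.59 (adjusted p = 0.000868) and a leaf response of 0.05. Its other 2 probe sets gave -1.50 (adjusted p = 0.0797) and -1.97 (adjusted p = 0.0354). Both ACO5 and ACO6 passed in all 23 alternative settings. Of the 13 listed ethylene synthesis genes these 2 passed, the 11 others lay between -0.56 and 0.82, and the list's median was -0.23.

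The next 2 genes fell in leaf. SODCP.2, a chloroplast copper-zinc superoxide dismutase that converts superoxide to hydrogen peroxide, was at 7.03, 6.54 and 7.40 in root-Cd, against 7.83, 7.84 and 7.91 in root-ck. In leaf-Cd it was at 7.26, 7.42 and 7.66, against 11.23, 11.33 and 10.97 in leaf-ck. The groups of both organs were apart, and the leaf-ck arrays stood far above all 9 others. The organ difference was 2.86 ± 0.28 (95% interval 2.23 to 3.49, adjusted p = 0.00159), with a leaf response of -3.73 (adjusted p = 1.48e-05). The root response of -0.87 (adjusted p = 0.0447) lost its call with the leaf arrays paired (0.0684) and without any 1 of 9 arrays (up to 0.147). The 9 were root-ck-1, root-ck-2, root-ck-3, root-Cd-1, root-Cd-2, leaf-ck-1, leaf-ck-2, leaf-ck-3 and leaf-Cd-2. Leaving out a leaf array does not change the root estimate, only the shared variance and the adjustment. The same holds below where the call of 1 organ's response is lost without an array of the other organ.

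EXP2, an expansin, belongs to the proteins that loosen cell walls during growth. It was at 6.98, 7.59 and 6.58 in root-Cd, against 6.38, 6.22 and 6.19 in root-ck, and at 5.19, 7.20 and 6.19 in leaf-Cd, against 9.66, 9.90 and 9.22 in leaf-ck. The leaf groups were apart by more than 2 units, while the leaf-Cd arrays were the most scattered of the 4 groups. The organ difference was 4.19 ± 0.60 (95% interval 2.86 to 5.51, adjusted p = 0.0133), with a root response of 0.79 (adjusted p = 0.398) and a leaf fall of 10.6-fold. It passed in all 23 alternatives, as did SODCP.2.

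The subtilisin-like protease sbt3 had the highest adjusted p of the 10 named genes. It was at 10.23, 10.41 and 10.24 in root-Cd, against 9.91, 9.89 and 9.94 in root-ck, and at 9.19, 8.23 and 8.43 in leaf-Cd, against 9.77, 10.24 and 9.68 in leaf-ck. Root arrays with Cd lay a little above their controls and leaf arrays with Cd below theirs. The organ difference was 1.66 ± 0.32 (adjusted p = 0.0477). It lost the threshold without any 1 of 11 arrays, all but leaf-Cd-1, with adjusted p from 0.0559 to 0.109, and without leaf-ck-2 its leaf response of -1.28 lost its call too (adjusted p = 0.0642).

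Among genes that rose in root, LOC544276 carries the synonym ICL, the usual abbreviation of isocitrate lyase, a glyoxylate cycle enzyme that lets cells build sugars from fatty acids. It was at 10.21, 9.60 and 9.54 in root-Cd, against 6.23, 4.37 and 4.95 in root-ck, and at 10.37, 10.09 and 9.95 in leaf-Cd, against 9.15, 10.11 and 9.27 in leaf-ck. Only the root controls were low, and the leaf groups overlapped. The root rise was 24.3-fold and the leaf response 0.63 (adjusted p = 0.464), which gave an organ difference of 3.97 ± 0.59 (95% interval 2.67 to 5.28, adjusted p = 0.0159). It passed in all 23 alternatives.

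LOC543602 carries the synonym Eli3, a name that in parsley belongs to a gene switched on by fungal elicitors. It was at 8.97, 8.56 and 8.12 in root-Cd, against 6.39, 5.47 and 4.83 in root-ck, and at 6.90, 6.50 and 7.41 in leaf-Cd, against 7.85, 6.85 and 6.86 in leaf-ck. The root groups were apart and the leaf groups overlapped. This gave an organ difference of 3.24 ± 0.59 (adjusted p = 0.0386), and a second probe set gave 1.19 (adjusted p = 0.0507). The second was above background on all 3 root-Cd arrays, on 1 leaf-ck array and on 0 root-ck and 0 leaf-Cd arrays. With values floored at background it gave 0.77. The call of the first was lost without any 1 of 9 arrays (root-ck-2, root-ck-3, root-Cd-1, root-Cd-2, leaf-ck-1, leaf-ck-2, leaf-ck-3, leaf-Cd-1 and leaf-Cd-2; adjusted p from 0.0555 to 0.0886).

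LOC543717 (synonym TSB) was at 8.31, 8.35 and 7.65 in root-Cd, against 6.45, 6.36 and 6.64 in root-ck. In leaf it was low throughout, at 3.04, 3.13 and 3.25 with Cd and at 3.10, 3.47 and 3.0 without it. These leaf values lay above the background of 2.69 to 3.01 but near it, so a fall in leaf could hardly have been measured. The root groups did not overlap and the leaf groups did. For this gene the organ difference was 1.67 ± 0.28 (adjusted p = 0.0248), and the call was lost without root-ck-1, root-ck-2, root-Cd-1, leaf-ck-2, leaf-ck-3 or leaf-Cd-2 (adjusted p from 0.054 to 0.0683).

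Of the 4 negative organ differences, 2 belong to genes that rose in leaf and have no description here. LOC544070 was at 11.24, 10.96 and 10.95 in root-Cd, against 11.00, 11.56 and 10.75 in root-ck, and at 9.68, 10.23 and 9.90 in leaf-Cd, against 8.06, 7.24 and 7.45 in leaf-ck. The leaf groups did not overlap and the root groups did. It had an organ difference of -2.41 ± 0.36 (adjusted p = 0.0159) and its second probe set one of -2.02 (adjusted p = 0.0155). The first was at adjusted p = 0.054 without leaf-ck-3.

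LOC544282 was at 6.22, 5.55 and 3.79 in root-Cd, against 6.05, 4.88 and 6.73 in root-ck, and at 7.31, 7.87 and 8.08 in leaf-Cd, against 3.97, 3.51 and 3.82 in leaf-ck. The leaf groups were far apart, and the root arrays were scattered. This gave an organ difference of -4.69 ± 0.82 (95% interval -6.49 to -2.88, adjusted p = 0.0321), with a leaf rise of 15.8-fold. The call was lost without root-ck-1, root-ck-3, leaf-ck-1, leaf-ck-2, leaf-ck-3 or leaf-Cd-2 (adjusted p from 0.0506 to 0.0879).

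**Figure D2:**
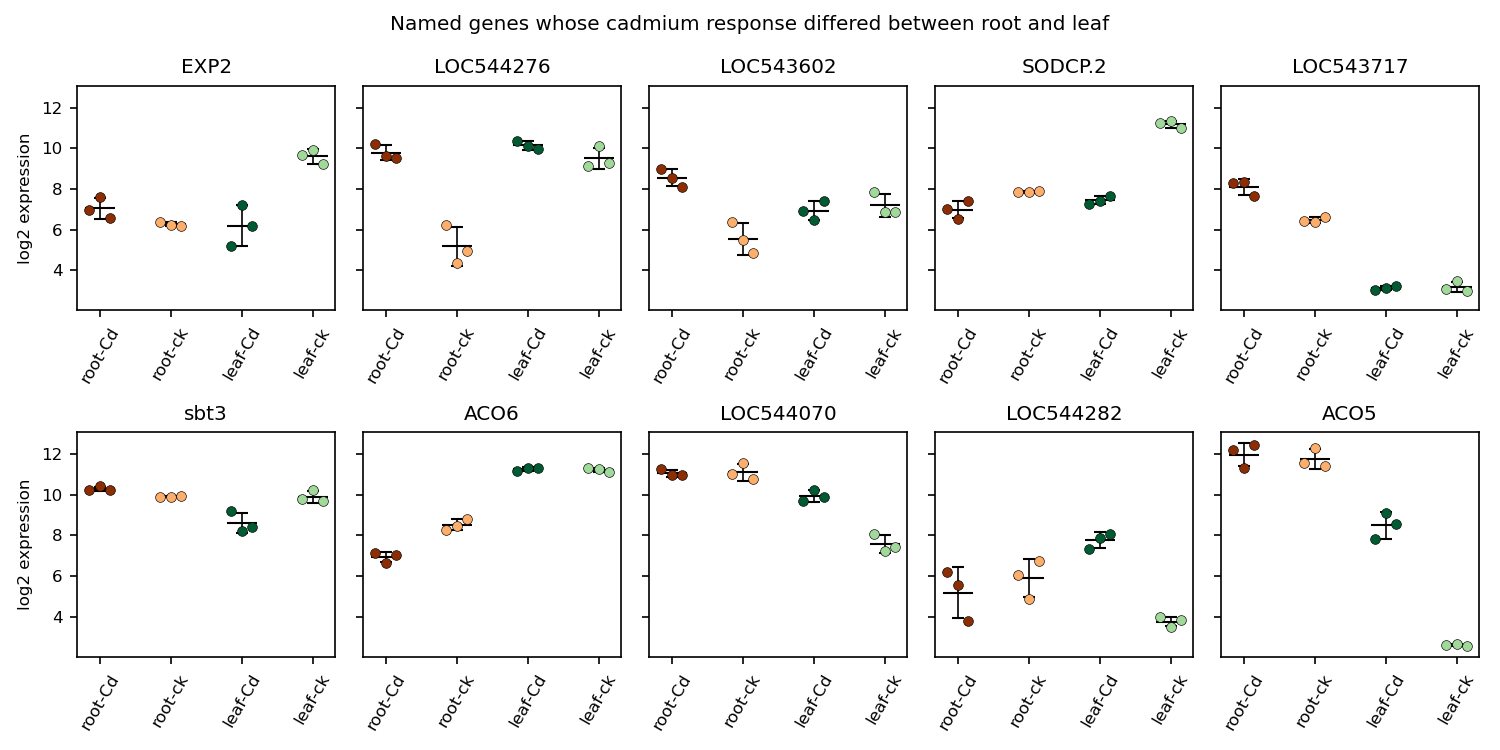
Log2 expression (y axis) of the 10 named genes past the threshold on each array, with root-Cd, root-ck, leaf-Cd and leaf-ck from left to right, points for the 3 arrays of a group, and mean ± SD as a bar with whiskers. The root points with and without Cd are apart for LOC544276, LOC543602, LOC543717 and ACO6 while their leaf points overlap or lie close, and the leaf points are apart for EXP2, SODCP.2, sbt3, LOC544070, LOC544282 and ACO5.

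In 6 probe sets the root fell and the leaf rose, and in none of the 76 did both organs' own tests give the reverse. None of the 6 has a symbol here. The probe set with the largest organ difference of the 6 was at 4.36, 4.02 and 4.28 in root-Cd, against 5.34, 5.80 and 5.01 in root-ck, and at 5.37, 6.11 and 5.57 in leaf-Cd, against 3.81, 3.23 and 3.11 in leaf-ck. The groups of neither organ overlapped. Its organ difference was -3.46 ± 0.37 (95% interval -4.27 to -2.65, adjusted p = 0.0024), and it passed in all 23 alternatives. Its root response of -1.16 lost its own call without root-ck-1, root-ck-2, root-Cd-1, root-Cd-2, root-Cd-3 or leaf-ck-2 (adjusted p up to 0.121) and with the leaf arrays paired (0.0559). The 5 others had organ differences from -2.19 to -1.16.

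The largest organ differences among the 64 probe sets without a symbol include 3 more. The most negative of all was at 12.51, 12.56 and 12.50 in root-Cd, against 11.81, 12.06 and 11.67 in root-ck, and at 8.07, 7.82 and 6.18 in leaf-Cd, against 2.78, 3.38 and 2.30 in leaf-ck, where it was above background on 1 of 3 arrays. This probe set was high in roots of both kinds and low in leaf controls, as ACO5 was. Its organ difference was -3.86 ± 0.60 (adjusted p = 0.0183, and 0.0554 without leaf-ck-3). The most positive fell in leaf, with an organ difference of 3.66 ± 0.70 (adjusted p = 0.0431) that was lost without any 1 of 9 arrays (root-ck-1, root-ck-2, root-ck-3, root-Cd-1, root-Cd-2, leaf-ck-2, leaf-ck-3, leaf-Cd-1 and leaf-Cd-2; adjusted p from 0.0602 to 0.107). The next most positive rose in root, with an organ difference of 3.03 ± 0.35 (adjusted p = 0.00397), and passed in all 23 alternatives. It was above background on all 3 arrays of root-Cd and of leaf-ck, but on 1 root-ck array and 1 leaf-Cd array. With values floored at background its organ difference was 2.50.

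The 5 named genes nearest the threshold from outside do not count as differing between the organs. PR1b1, a defence protein of the PR-1 family, was at 8.72, 12.15 and 10.80 in root-Cd, against 6.05, 5.54 and 5.17 in root-ck, and at 12.03, 10.79 and 11.46 in leaf-Cd, against 11.47, 10.63 and 11.47 in leaf-ck. Only its root controls were low, and the root-Cd arrays spread widely. Its organ difference of 4.74 was larger than that of EXP2, with a wider interval, 2.59 to 6.89 (adjusted p = 0.0523, and 0.00736 without root-Cd-1). A second probe set of PR1b1 gave 0.34 (adjusted p = 0.679), but it was above background on 1 leaf-Cd array and on no array of the other groups. It therefore held little signal to set beside the 4.74. The dehydration-response factor DREB3 stood at -0.96 (0.0523) and formin-I2I, of the actin-nucleating formins, at 1.22 (0.0542). CELLULASE, a cell wall glucanase, stood at 2.84 (0.0618), and the potassium channel LKT1 at -1.59 (0.0618). With the leaf arrays paired, formin-I2I and CELLULASE both had an adjusted p of 0.023. Without leaf-Cd-3 CELLULASE was at 0.0306 and LKT1 at 0.0363. DREB3 passed after median centring (0.0473) and after quantile normalization within each organ (0.0491), and LKT1 after quantile normalization over all arrays (0.0481) and within each organ (0.0468).

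**Figure D3:**
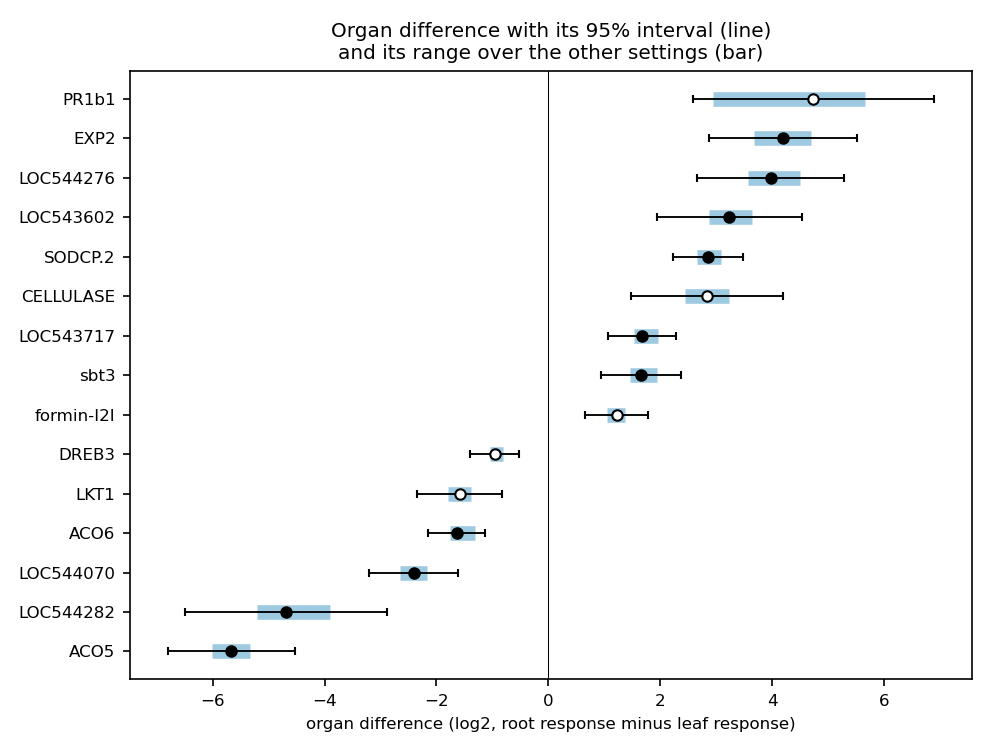
Organ difference (x axis, log2) of the 10 named genes past the threshold (filled) and the 5 nearest it from outside (open), with the 95% interval as a line and the range over the alternative settings as a pale bar. No interval or bar reaches 0, and the open and filled points overlap in size.

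Genes of a process were then read together, from 25 lists of symbols. Over all 801 named genes 10 passed (the share over all probe sets being 0.757%), so most lists hold no call. The lists are described by counts, a median or single members, and the median of all named genes was 0.05. Some lists without a call are not described further. Their medians were -0.21 (WRKY factors), -0.53 (flavonoid and phenylpropanoid synthesis), -0.10 (lipoxygenases and jasmonate synthesis) and -0.43 (starch and malate metabolism). For the 3 proteinase inhibitors, all positive, the median was 1.52. In these bulk samples fewer cells of a type and less RNA per cell cannot be told apart.

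All 12 pathogenesis-related (PR) proteins and chitinases, which attack microbial walls or accompany defence, had a positive organ difference, with a median of 1.48, and none of the 12 passed. The value of P4, another PR-1 protein, was 5.46 with an interval of 2.23 to 8.70 (adjusted p = 0.113, and 0.0346 without root-Cd-1). P4 was at 6.89, 11.34 and 10.16 in root-Cd, against 3.38, 3.35 and 3.59 in root-ck, and at 10.93, 8.32 and 9.20 in leaf-Cd, against 9.47, 7.48 and 9.82 in leaf-ck. Its root-Cd arrays lay in the range of its leaf arrays with and without Cd or near it, and its root controls far below. Those controls were near the background of their arrays (3.18, 3.37 and 3.39). The size of the organ difference of P4 thus rests on values near background. Its root rise (adjusted p = 0.0132) was at 0.0506 without root-ck-1. The chitinase CHI3 stood at 2.48 (adjusted p = 0.341) and PR-P2 at 2.28 (0.643), with leaf values of PR-P2 spread from 5.62 to 11.21.

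Expansins had the highest list median, 1.54, with 10 of 12 positive and EXP2 alone past the threshold. EXP5 stood at 2.96 (adjusted p = 0.232), exp11 at 2.42 (0.0942) and EXPA4 at 1.94 (0.124). In all 3 the root response was positive and the leaf response negative. The exp11 leaf values were 6.97, 7.51 and 7.97 with Cd and 9.09, 9.54 and 9.37 without it. That leaf fall (adjusted p = 0.0409) was lost without root-ck-1, root-Cd-1, leaf-ck-1, leaf-ck-2, leaf-ck-3, leaf-Cd-1 or leaf-Cd-2 (up to 0.155). Of the 28 cell wall enzymes and extensin none passed, 16 were positive and the median was 0.20. The xyloglucan-modifying enzyme XTH7 stood at 2.92 (adjusted p = 0.172, but 0.023 with the leaf arrays paired and 0.0435 without leaf-Cd-3) and the glucanase Cel2 at 2.63 (0.151). The extensin-like gene ext1 stood at 2.71 (0.0826, and 0.0245 without root-Cd-3), but it was at background on all 6 leaf arrays, so no leaf response was measured. Its root response was 2.61 (adjusted p = 0.0142), a call lost without root-ck-1, root-Cd-1 or root-Cd-2 (up to 0.0725).

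Cyclins and cell cycle kinases, which drive cell division, had a median of 0.84, with 8 of 10 positive and none past the threshold. CycA2 was at 6.80, 6.49 and 6.70 in root-Cd, against 5.86, 6.08 and 5.52 in root-ck, and at 3.21, 5.25 and 4.70 in leaf-Cd, against 4.52, 5.88 and 6.44 in leaf-ck. The root groups were apart and the leaf groups overlapped. Within each array number, though, leaf-Cd lay below leaf-ck. The organ differences were 2.07 for CycA2 (adjusted p = 0.229), 2.01 for the mitotic kinase CDKB2 (0.401) and 1.83 for CycA1 (0.32). With the leaf arrays paired these 3 passed, with adjusted p of 0.023, 0.0212 and 0.0258.

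**Figure D4:**
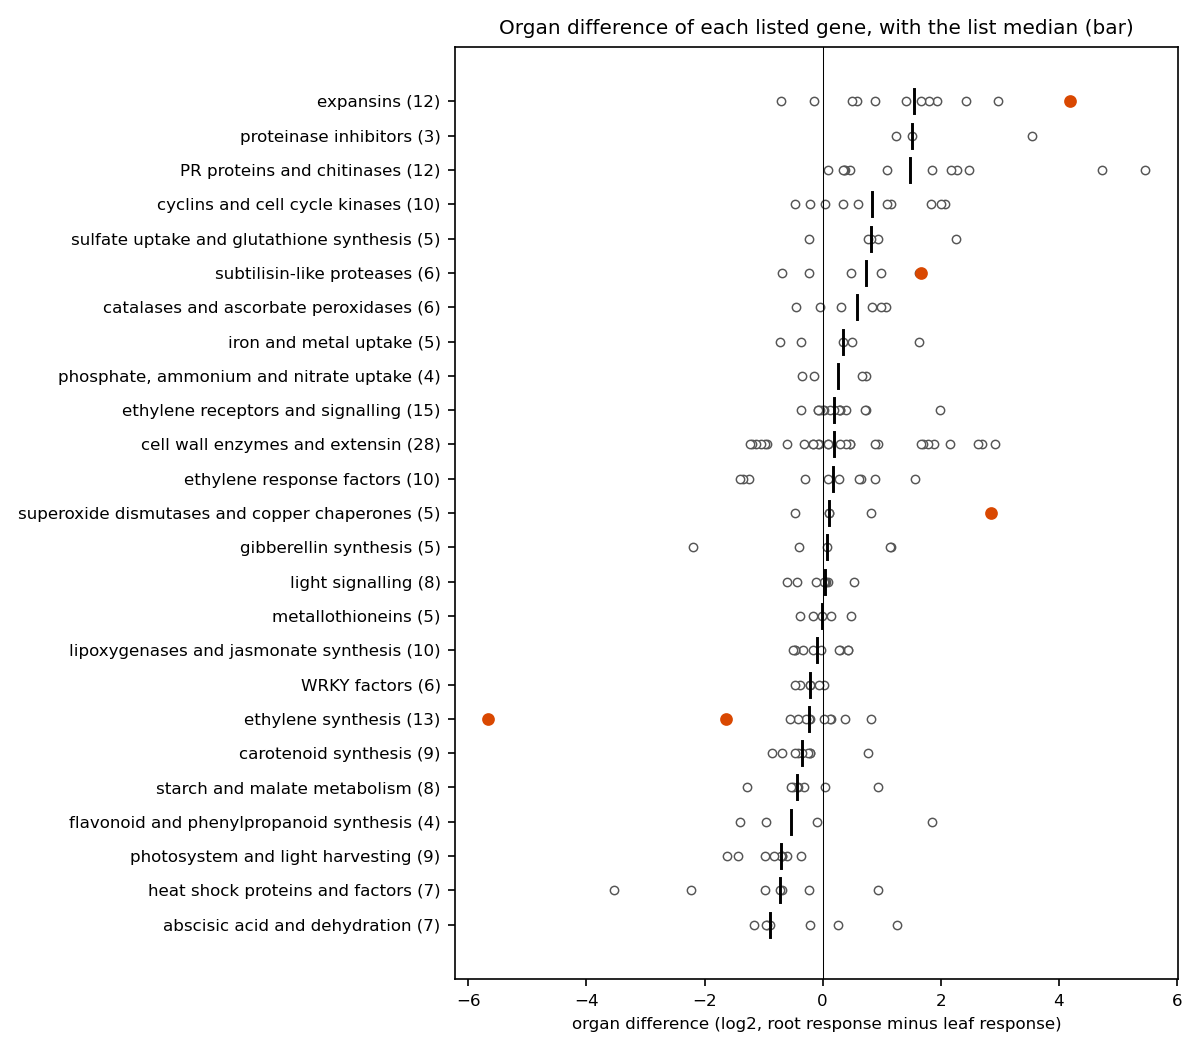
Organ difference (x axis, log2) of every gene of the 25 lists, 1 row a list with its number of genes, filled where past the threshold, and the list median as a black bar. The 4 filled rows are the expansins, the subtilisin-like proteases, the superoxide dismutases and, with 2 genes, ethylene synthesis.

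The 9 photosystem and light-harvesting genes all had a negative organ difference, with a median of -0.70, and none passed. CAB5 stood at -1.62 (adjusted p = 0.491), and CAB4, another chlorophyll-binding antenna protein, at -1.43 (0.316). CAB4 was at 8.11, 9.52 and 8.89 in root-Cd, against 10.77, 9.89 and 11.88 in root-ck, and at 11.53, 11.88 and 12.15 in leaf-Cd, against 12.44, 12.43 and 12.41 in leaf-ck. The Cd groups lay below their controls in both organs, and the root controls were the most scattered of the 4 groups. The root fall of CAB4 (adjusted p = 0.0401) was lost without root-ck-1, root-ck-3, root-Cd-1, root-Cd-3, leaf-ck-1, leaf-ck-2, leaf-ck-3 or leaf-Cd-2 (up to 0.169) and with the leaf arrays paired (0.0644). The 6 measured of 9 leaf markers, all photosynthesis genes, were above background in every group. Their summed level ran from 13.2 to 13.7 in root-Cd, 13.8 to 14.7 in root-ck, 14.4 to 14.7 in leaf-Cd and 14.8 to 14.9 in leaf-ck (log2). How much green or light-exposed tissue the root samples held was not tested.

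**Figure D5:**
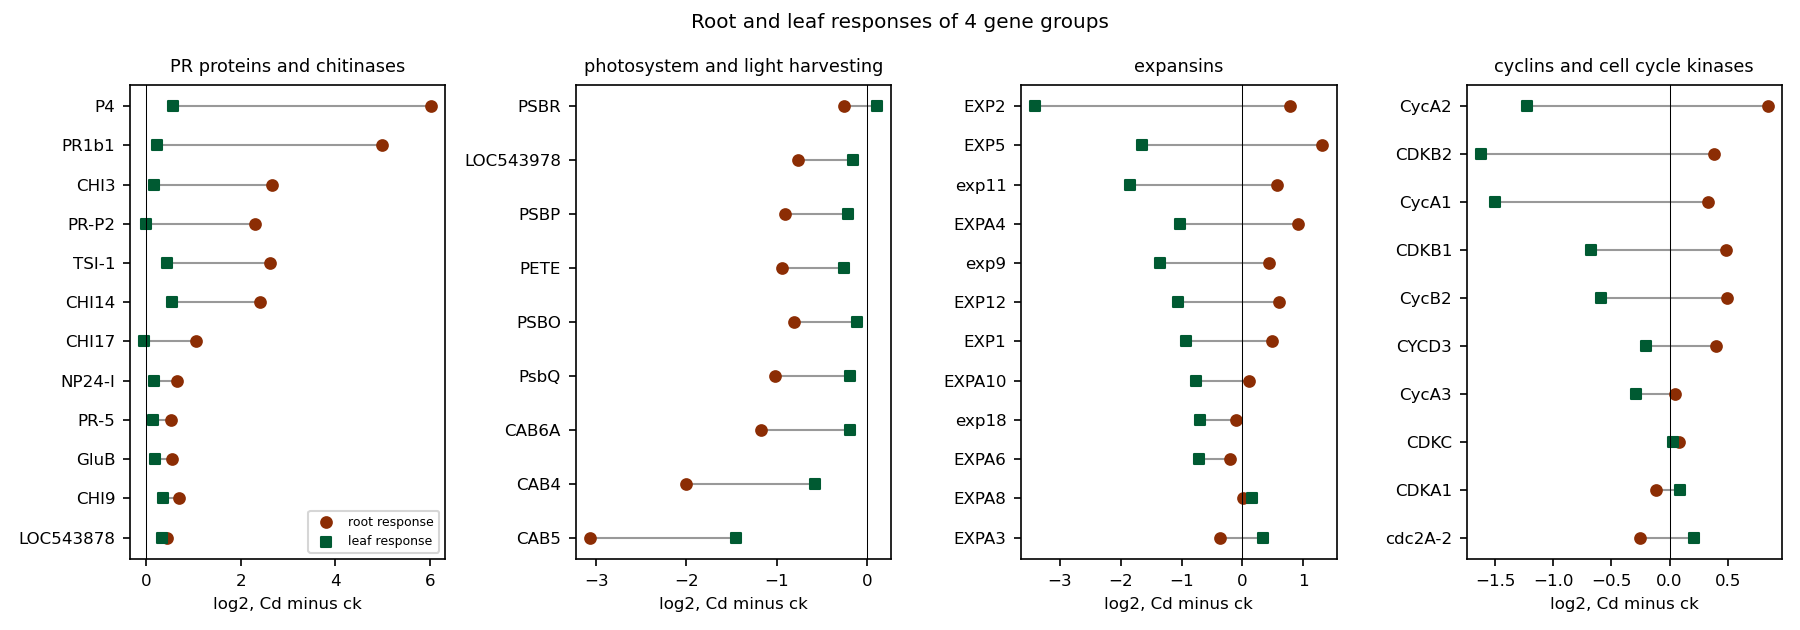
Root response (circles) and leaf response (squares) on the log2 scale for the members of 4 lists, joined by a line for each gene. Circles lie right of squares for all 12 PR proteins and chitinases and left of them for all 9 photosystem genes, while most expansins and cyclins have their circle right of 0 and their square left of it.

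In each of the lists for metal, sulfate and phosphate uptake, 1 gene was at background on all leaf arrays and 0 on all root arrays. Over all 801 named genes 69 were at background in leaf and 70 in root. The metal transporter NRAMP1, the sulfate transporter ST1 and the phosphate transporter PT2 were at background on all 6 leaf arrays, so their organ differences of 1.64 (adjusted p = 0.0725), 0.82 (0.146) and 0.67 (0.596) hold no measured leaf response. NRAMP1 rose in root by 1.60 (adjusted p = 0.012, and 0.0587 without root-Cd-1). ST1 rose in root by 0.93 (adjusted p = 0.0159), a call lost without root-ck-1 or root-Cd-1 (up to 0.0747). NRAMP3, a metal transporter of the vacuole, was measured in both, with a root response of 0.50 and a leaf rise of 1.22, an organ difference of -0.72 (interval -1.15 to -0.29, adjusted p = 0.113). The sulfate transporter ST2 was at 5.17, 6.22 and 5.37 in root-Cd, against 3.58, 2.89 and 3.67 in root-ck, and at 5.33, 6.81 and 6.46 in leaf-Cd, against 6.05, 6.49 and 6.20 in leaf-ck. Only its root controls were low, and 1 of them was at background. Its organ difference was 2.25 (adjusted p = 0.0837, and 0.0497 with the leaf arrays paired). For GSH1 and GSH2, which make glutathione, the values were 0.94 (0.151) and 0.78 (0.18).

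The 5 metallothioneins, small cysteine-rich metal-binding proteins, had a median of -0.01. For LEMT1 the organ difference was 0.14 with a 95% interval of -0.18 to 0.46. For MT2 the interval was far wider, -3.31 to 2.53.

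In the 2 redox lists SODCP.2 alone passed the threshold. CCS, the chaperone that loads copper into superoxide dismutase, stood at 0.81 (adjusted p = 0.114), with a leaf response of -0.84 (0.0153, and 0.0722 without leaf-ck-2). The copper chaperone CCH stood at -0.47 (0.206), and the iron enzyme FESOD at 0.10 (interval -0.78 to 0.98). A second probe set of FESOD gave -0.51 (adjusted p = 0.689), and its responses of 1.04 in root and 1.54 in leaf had the opposite sign to the -0.48 and -0.58 of the first, with none of the 4 past the threshold. None of the 6 catalases and ascorbate peroxidases passed (median 0.58), with APX2 at 1.08 (0.288) and its second probe set at 0.93 (0.189).

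Of the 7 heat shock proteins and factors none passed, and 6 were negative, with a median of -0.73. HSP21, the plastid small heat shock protein, was at 4.01, 4.79 and 4.89 in root-Cd, against 8.63, 6.24 and 9.0 in root-ck, and at 5.64, 4.81 and 5.75 in leaf-Cd, against 5.22, 4.83 and 5.73 in leaf-ck. The root controls alone were high. Its organ difference was -3.54 (interval -5.43 to -1.64, adjusted p = 0.0837, and 0.00569 without root-ck-2). ER-SHSP, of the endoplasmic reticulum, stood at -2.22 (0.0725, and 0.0405 with values floored at background) through a leaf rise of 2.04 (0.0131, and 0.0635 without leaf-ck-2), with root values near background.

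Hormone genes beyond ethylene synthesis gave no call. Among the 15 ethylene receptors and signalling genes, 11 were positive and the median was 0.20, with the receptor ETR4 at 1.99 (adjusted p = 0.0725, and 0.0426 without leaf-Cd-3) and the transcription factor EIL1 at 0.74 (0.0842). Of the 10 ethylene response factors 6 were positive and the median was 0.18, with PTI5 the highest at 1.56 (0.565). ERF2 stood at -1.41 (0.0853, and 0.0482 without leaf-Cd-1), from a leaf rise of 1.58, and PTI6 at -1.24 (0.0899, and 0.0314 with the leaf arrays paired). NCED1, the rate-limiting enzyme of abscisic acid synthesis, fell in root by 1.32 on the log2 scale, and its organ difference was -1.17 (0.062, and 0.0482 without leaf-Cd-1). The gibberellin 20-oxidase gene 20ox-2 stood at -2.19 (0.074, and 0.0399 with the leaf arrays paired). Of the 5 gibberellin synthesis genes, though, 3 were positive and the median was 0.08, with 20ox-3 at 1.17 (0.327) and GA20OX1 at 1.14 (0.576).

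Some named genes fell in both organs, and for these the organ difference compares the 2 falls. CO1, of the CONSTANS family of light and flowering regulators, was at 2.61, 2.84 and 3.16 in root-Cd, against 4.82, 4.46 and 5.59 in root-ck, and at 3.81, 3.95 and 3.10 in leaf-Cd, against 5.46, 5.91 and 5.41 in leaf-ck. The groups of both organs were apart. Its organ difference was -0.12 with an interval of -1.07 to 0.84, which reaches about 2-fold in either direction, and its root-Cd values were above background on 1 of 3 arrays. CIP1, named after a partner of the light-signalling repressor COP1 in Arabidopsis, fell by 1.76 in root and by 1.15 in leaf, an organ difference of -0.61 (interval -0.98 to -0.24, adjusted p = 0.124). A second probe set of CIP1 gave -0.77 (adjusted p = 0.115). PSY2, a phytoene synthase at the entry to carotenoid synthesis, fell by 0.99 in root and by 1.76 in leaf, an organ difference of 0.77 (interval 0.27 to 1.27, adjusted p = 0.146). The transcription factor HY5 stood at 0.54 (0.441), and its root fall was lost without root-ck-1, root-ck-2, root-ck-3, root-Cd-1, root-Cd-2 or leaf-ck-1 (up to 0.107). The lycopene cyclase LCY1 stood at -0.69 (0.201), and its leaf fall was lost without leaf-ck-1, leaf-ck-2, leaf-ck-3 or leaf-Cd-2 (up to 0.0972).

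The labelled organs were checked against marker genes. The 4 measured of 6 root markers were above background in both root groups, with summed levels of 12.4 to 12.7 in root-Cd and 11.5 to 11.8 in root-ck. In leaf-Cd 3 of the 4 and in leaf-ck all 4 were at background, with sums of 4.23 to 4.56 and 4.15 to 4.34. Both trichome markers were at background in roots, and 1 of the 2 was at background in leaf-Cd and 1 in leaf-ck. The leaf markers separated the organs less well. Their sums overlapped between root-ck (13.8 to 14.7) and leaf-Cd (14.4 to 14.7). The 1 listed phloem marker was not measured. Median log2 levels were 7.46 to 7.50 in root arrays and 6.85 to 6.89 in leaf arrays, a difference that cancels within each organ's response. Between 87.1% and 90.2% of probe sets were above background on each array. Precision was limited with 3 arrays in a group, and the median standard error of an organ difference was 0.27, against 0.19 for the root response. The fit shares the variance of a probe set over all 12 arrays. The larger error thus follows from the contrast, which uses the means of all 4 groups.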

How the data were processed

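The authors deposited log2 expression values per probe set for 12 arrays; the values were used as deposited. MAS5 and RMA are named, per the submitters' processing notes, with no version or role, and the normalization is otherwise not given in the sources used here. Group means of the 4 title groups were fitted to all 12 arrays with limma 3.58.1 in R 4.3.3 (empirical Bayes, prior degrees of freedom 2.84, residual 8). The contrasts were the organ difference and the response of each organ, two-sided, with Benjamini-Hochberg adjustment over 10038 probe sets and a threshold of 0.05. Python 3.11.15 with pandas 2.3.3 was used for the tables and matplotlib 3.10.9 for the plots. The fit was tested on simulated data.

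Symbols came from the array's platform annotation, which is old, and 885 of the 909 named probe sets were matched to RefSeq gene records for synonyms. For 82 genes with several probe sets, the one with the highest mean stood for the gene. A symbol shared by several gene records (PRO1) was left out. The rule names all 10 genes past the threshold, the 5 nearest it from outside, up to 4 members of each of the 25 lists by size of the organ difference, and the 2 unnamed probe sets with the largest difference in each direction. The contrast, the members and the lists were chosen with earlier results of these data known, and symbol matches to unrelated genes were taken out of the lists by hand. Where a gene was at background on all arrays of a group, the fold is a bound set against the background level. Array numbers were checked as pairs by correlating deviations from the group means between Cd and control arrays of the same number. The correlations were 0.00, -0.26 and 0.06 in root and 0.35, 0.42 and 0.12 in leaf, and no label says what a number marks. Arrays of unlike number were not compared, and the leaf value of 0.12 lies near the root value of 0.06. The leaf pairing was thus chosen from these same data, and calls that appear only with it are not independent support. The 23 alternatives were pairing in both organs or in leaf, array weights, another variance prior, 3 scalings, a floor at background, 2 filters on dim probe sets, a variance for each organ, and leaving out each of the 12 arrays. No sequence or genome position was used.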

Additional observations from a re-analysis of the deposited data

Results flagged for a closer look

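The test of the difference between the 2 organs' responses is what singled out every result here; groups of 3 arrays are too small for a check of single outlying samples. It called 76 probe sets. Among named genes the organ difference (log2, root response minus leaf response) was 4.19 for EXP2, 3.97 for LOC544276, 3.24 for LOC543602, 2.86 for SODCP.2, 1.67 for LOC543717 and 1.66 for sbt3. It was -1.64 for ACO6, -2.41 for LOC544070, -4.69 for LOC544282 and -5.67 for ACO5. Among probe sets without a symbol the 2 largest in each direction were 3.66 and 3.03, and -3.86 and -3.46.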

How the results depend on the processing

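The count of 76 organ differences lay between 62 and 91 under pairing by number in both organs (87, of which 42 are among the 76), the other variance prior, the 3 scalings, the floor, the 2 filters and a variance for each organ. It was 185 with the leaf arrays paired (replicate block in leaf only), 705 with array weights, and 26 to 160 without single arrays. The root response, 304, was 3745 with array weights, 606 with a variance for each organ, and 85 to 409 without single arrays. The leaf response, 379, was 664 with the replicate block in leaf only, 201 with a variance for each organ, and 127 to 589 without single arrays. Leaving out an array reduces the samples in the fit; the cause of the other changes was not tested. The deviations of root arrays of the same number correlated at 0.00, -0.26 and 0.06. Pairing in both organs ended the calls of sbt3, LOC543717, LOC544070 and LOC544282 and kept 6 of the 10 named genes. A variance for each organ also ended that of LOC544282. No organ difference of a gene past the threshold changed direction. In all, 2424 values of single genes kept their side of the threshold, 49 lost it and 61 gained it, 32 of them with array weights. Dim probe sets limit the reading: 5.86% of probe sets were at background in both organs.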
